A study of Sus scrofa with 6 samples.

Results

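PRKG1 encodes cyclic GMP dependent protein kinase 1, and 1 of the 7661 gene records in the authors' deposited table carries its name. It is the record ENSSSCG00000010429 on chromosome 14, from 106253479 to 106707670 on the minus strand in the coordinates of that table, whose genome build no source used here names. The libraries came from longissimus muscle, the long back muscle of the pig (Sus scrofa), from 3 pigs with high and 3 pigs with low intramuscular fat, the fat deposited between and within bundles of muscle fibres. No source used here states the breed, sex, age or treatment of the pigs, and each library is named below by its group and number. The record was chosen by its fold change between these same libraries. In the authors' deposited table it ranked 5 among the rises in the high group, with a log2 fold change of 2.67. The records just above and below it in that table were PLIN1 at 2.75 and a record of FASN at 2.39. Its difference between the groups is therefore described here without a test.

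Cyclic GMP is made by guanylate cyclases, of which one kind responds to nitric oxide and the other to natriuretic peptides, and it is broken down by phosphodiesterases. PRKG1 is the cytosolic kinase that cyclic GMP switches on, and it phosphorylates proteins that lower calcium and relax the smooth muscle of vessel walls. In human fat cells the same kinase mediates the release of fatty acids that natriuretic peptides cause, through hormone-sensitive lipase and the lipid droplet coat protein perilipin, and in mouse it takes part in the formation of thermogenic fat cells. Its alpha and beta isoforms differ at the amino terminus. In the RefSeq annotation of Sscrofa11.1, a later build, the small gene CSTF2T lies inside PRKG1, whereas in the deposited table it lies 98.5 kb outside the end of the PRKG1 record. The counted record thus does not cover the whole RefSeq gene, and the counts do not separate isoforms.

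Library totals were between 25371989 and 34813172 reads, and the listed records held 96.6% to 97.2% of them. Mitochondrially encoded records took 6.99% to 12.7% of each total. The muscle fibre marker ACTA1, skeletal alpha-actin, stood between 22413 and 29737 CPM (reads scaled to a common library total, here with TMM factors) in all 6 libraries.

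PRKG1 was several times more abundant in every library of the high group than in any of the low group. The deposited counts were 833, 573 and 545 reads in low libraries 1 to 3 and 1648, 3241 and 5458 reads in high libraries 1 to 3. On the TMM-normalised scale the low libraries held 23.7, 17.02 and 19.3 CPM and the high libraries 67.8, 123 and 190.2 CPM. The low libraries lay close together, the high libraries were spread out with library 3 highest, and the groups did not overlap. The lowest high library was 2.86 times the highest low library. The high group lay wholly above the low group in 13.5% of all records and wholly below it in 13.3%. Nothing is read from the place of PRKG1 among them, since this difference chose the record.

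The group levels were 127 ± 61.3 CPM in the high and 19.98 ± 3.39 CPM in the low group (SD, n = 3 each), a 6.36-fold difference. The log2 fold change, high minus low, was 2.67 with a standard error of 0.36, and PRKG1 ranked 5 of 7661 by this value. It ranged from 2.26 without high library 3 to 2.98 without high library 1. Counting error was small beside these differences. The 95% Wilson interval of the deposited CPM was 61.9 to 68.2 in high library 1 and 184 to 194 in high library 3, so these pigs of the same group differed by far more than counting error, which is all that the interval covers. The highest high library was 2.80 times the lowest, against 1.39 times in the low group. The SD of log2 CPM was 0.75 within the high group and 0.24 within the low group. Pooled over both groups it was 0.55, and 94.6% of the other records had a smaller one.

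**Figure D1:**
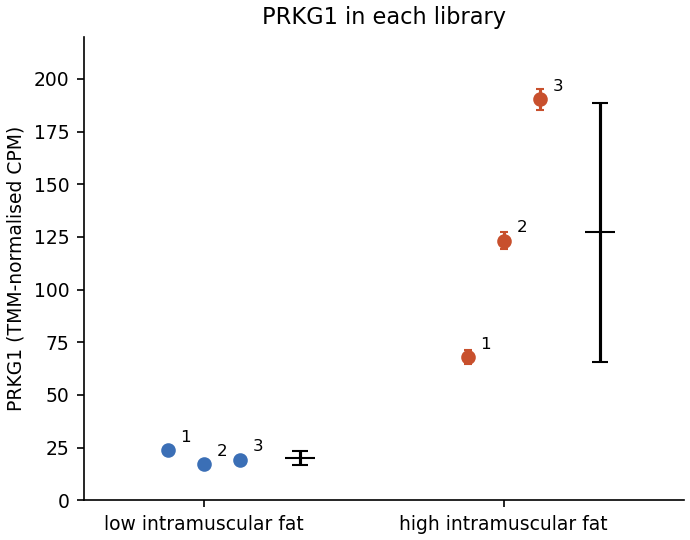
PRKG1 in TMM-normalised CPM (vertical axis, linear from 0) in each of the 6 libraries, numbered within the low and the high group. Bars on the points are 95% Wilson intervals of the count and the black bars are group mean ± SD; the low libraries lie between 17.02 and 23.7 CPM and the high libraries between 67.8 and 190.2 CPM.

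The PRKG1 record spans 454 kb, and 11 records of the table are longer. Fold changes rose with genomic span in these libraries: in 12 bins of equal size the median log2 fold change went from -0.18 in the shortest (median 1.42 kb) to 0.23 in the longest (median 168 kb). The 57 other records with a span within 1.5-fold of that of PRKG1 had a median of 0.28 and a range from -2.11 to 1.05, and 46 of them were above 0. Nothing is read from the place of PRKG1 beside them, since its fold change chose the record. With the span trend taken out of each library its log2 fold change was 2.35.

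**Figure D2:**
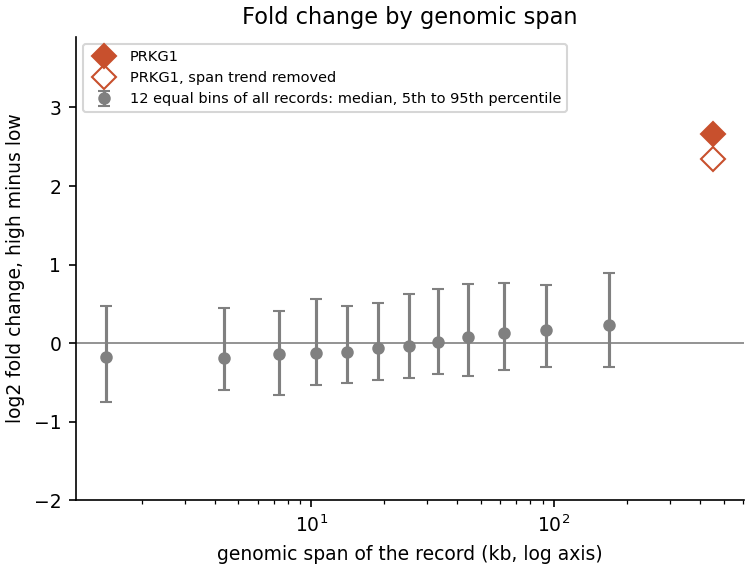
Log2 fold change, high minus low (vertical axis), against the genomic span of the record in kb (horizontal log axis). Grey points are medians of 12 equal bins of all records with bars from the 5th to the 95th percentile; The bin medians go from -0.18 to 0.23, and PRKG1 lies at 2.67, or at 2.35 with the span trend removed (open symbol).

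The 3 other listed records within 2 Mb of PRKG1 had overlapping groups. CSTF2T, which encodes a cleavage stimulation factor subunit of messenger RNA 3' end processing and is the nearest of them, stood at 23.02, 22.1 and 13.9 CPM in the low and 18.4, 18.4 and 18.7 CPM in the high libraries. High and low values were interleaved, with high minus low at -0.09 in log2 units (SE 0.20, adjusted p = 0.830 in the quasi-likelihood test of edgeR). SGMS1, a sphingomyelin synthase, had 0.48 (SE 0.28, adjusted p = 0.392) and MINPP1, an inositol polyphosphate phosphatase, 0.07 (SE 0.16, adjusted p = 0.827). None of the 3 passed in this test, 0 had an unadjusted p under 0.05 and 0 passed in DESeq2, where over all records the quasi-likelihood test called 0.144% (0.131% upward and 0.0131% downward) and DESeq2 6.77% (4.92% higher and 1.84% lower).

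Of the genes that make, sense or break down cyclic GMP, none of those measured beside PRKG1 passed the test between the groups. That test called 0.144% of all records, so 0 calls lie near the share of the whole table and are not read further. Of 60 genes on 4 lists for cyclic GMP synthesis, its breakdown, related kinases and PRKG1 substrates, 26 were found in the table, each on 1 record. The quasi-likelihood test called 0 of the 26 at an adjusted p of 0.05 and 0 at 0.1, where it called 1.01% of all records. DESeq2, which gave no adjusted p for PDE1B, called 0 of them and 6.77% of all records. With limma-voom 0 were called, and 8 records of the whole table. At an unadjusted p under 0.05 there were 4 higher and 4 lower records, where 18.5% of all records were under that value (10.2% higher and 8.3% lower). The groups did not overlap in 5 of them, 4 higher and 1 lower, against 26.8% of all records. Their median log2 fold change was 0.09 and that of all records -0.04. The unmatched genes, PRKG2 and PDE5A among them, are not analysed here.

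On the synthesis side, the soluble guanylate cyclase that nitric oxide activates is a pair of subunits, and both were listed. GUCY1A1, its alpha subunit, held 10.9, 4.78 and 4.21 CPM in the low and 13.2, 9.05 and 12.9 CPM in the high libraries. Low library 1 lay inside the range of the high group. The difference was 0.82 on the log2 scale (SE 0.37, adjusted p = 0.292), or 1.39 without low library 1. GUCY1B1, the beta subunit, held 21.5, 14.8 and 15.7 CPM in the low and 22.6, 23.1 and 22.9 CPM in the high libraries. The groups did not overlap, by a narrow margin at low library 1, and the difference of 0.40 on the log2 scale did not pass (SE 0.17, adjusted p = 0.267). The natriuretic peptide receptor NPR1 had 0.30 (SE 0.16, adjusted p = 0.359), and the related receptor NPR2 had -0.05 (SE 0.14, adjusted p = 0.868). The neuronal nitric oxide synthase NOS1, which muscle fibres also make, had 0.20 (SE 0.41), and the endothelial synthase NOS3 -0.09 (SE 0.20), with adjusted p of 0.805 and 0.827.

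On the breakdown side, 3 phosphodiesterases were listed. PDE2A, which cyclic GMP itself stimulates, held 17.7, 11.2 and 12.3 CPM in the low and 19.6, 18.9 and 21.7 CPM in the high libraries. The groups did not overlap, and the difference of 0.55 on the log2 scale did not pass (SE 0.19, adjusted p = 0.213). PDE11A had -0.01 (SE 0.15, adjusted p = 0.974). PDE1B, which calcium and calmodulin stimulate, was at 51.9 CPM in high library 1 and at 2.70 and 4.95 CPM in high libraries 2 and 3, and the low libraries lay between these at 11.0 to 25.8 CPM. Its log2 fold change was -0.03 (SE 0.97), or -2.39 without high library 1.

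The kinases of the cyclic AMP branch gave no call either. PRKAR2A, a regulatory subunit of cyclic AMP dependent kinase, held 57.1, 41.8 and 40.7 CPM in the low and 66.5, 65.1 and 69.5 CPM in the high libraries. The groups did not overlap, and the high group was above the low by 0.53 (log2, SE 0.16, adjusted p = 0.163). The catalytic subunit PRKACA had -0.33 (SE 0.26, adjusted p = 0.517) and the regulatory subunit PRKAR1A 0.11 (SE 0.17, adjusted p = 0.745).

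Of the 14 records of PRKG1 substrates and effectors, 8 lay above and 6 below 0, with a median of 0.04. PPP1R12A, the targeting subunit of myosin phosphatase through which the kinase relaxes smooth muscle, had 0.47 (SE 0.16, adjusted p = 0.191) and no overlap of the groups. Its relative PPP1R12B, the form of striated muscle, had -0.36 (SE 0.15, adjusted p = 0.263), and PPP1R12C had -0.04. RGS2, a regulator that ends G protein signals and that the kinase activates, held 20.2, 34.9 and 70.2 CPM in the low and 14.3, 23.4 and 16.2 CPM in the high libraries. High library 2 lay above low library 1, and the difference of -1.21 on the log2 scale did not pass (SE 0.43, adjusted p = 0.2101) and was -0.61 without low library 3. FHOD1, an actin-binding formin, had -0.60 (SE 0.18, adjusted p = 0.173), with all 3 high libraries below the low ones. The small heat shock protein HSPB6 had -0.50 (SE 0.19, adjusted p = 0.229). PLN, the phospholamban that restrains the calcium pump of slow fibres and heart, had 0.30 (SE 0.30). The transcription factors FOXO1 and FOXO3 had 0.43 and 0.59, and GTF2I 0.21. CSRP2, RHOA, GKAP1 and HDAC4 lay between -0.12 and 0.12. For these last 8 genes, PLN to HDAC4, the adjusted p lay between 0.292 and 0.994.

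**Figure D3:**
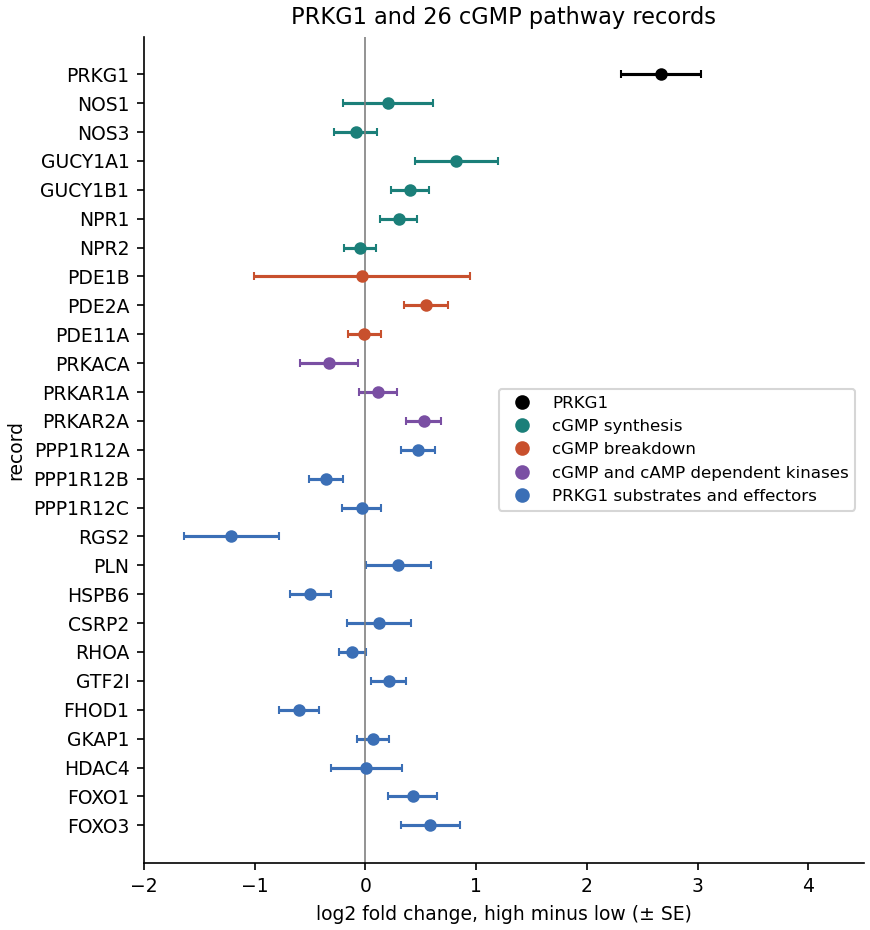
Log2 fold change, high minus low, with its standard error (horizontal axis) for PRKG1 and the 26 listed records of the cyclic GMP lists, coloured by list. PRKG1 lies at 2.67, and the 26 others lie between -1.21 (RGS2) and 0.82 (GUCY1A1).

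The records whose levels followed PRKG1 most closely included genes of lipid droplets and of fatty acid synthesis. Likeness was measured over the 6 libraries as the root mean square difference between the log2 CPM profiles after each was centred on its own mean, so that 0 would be the same profile. Since the libraries fall into separate groups for PRKG1, no correlation is given, and likeness to PRKG1 sets the direction of the records found this way, so no test between the groups is used to support them. The median distance of all records was 1.38, and 3 records lay within 0.5 and 29 within 0.75. The 10 nearest were PLIN1, CA5B, RETSAT, a record named ALDOA, SORL1, CIDEC, TET2, a record of FASN, a record of THRSP and ELOVL5, at distances of 0.17 to 0.66, and the next lay at 0.67. Of the 10, 4 are on the adipocyte list, which holds 15 of the 7661 records, and 0 are on the smooth muscle, pericyte or cyclic GMP lists. These counts describe the ranking, which favours records with a large group difference. PLIN1, CA5B, SORL1, CIDEC, the THRSP record and ELOVL5 lay under 10 CPM in all low libraries. Every listed record exceeds 10 CPM in at least 3 libraries, so these were listed only through the high group, which also set their direction. None of the 10 is placed on chromosome 14, although the ELOVL5 record lies on a scaffold for which no chromosome is given. Their spans run from 1.04 to 125 kb. The nearest record of the cyclic GMP lists was GUCY1A1 at 0.997, in place 241.

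PLIN1, which encodes perilipin 1, the coat protein of the fat cell's lipid droplet, was by far the nearest. It held 8.04, 4.75 and 6.18 CPM in the low and 28.4, 38.7 and 60.7 CPM in the high libraries. Both genes put the 6 libraries in the same order, from high library 3 down to low library 2. For PRKG1 the order of low libraries 2 and 3 turned with the scaling, at 18.3 and 18.1 deposited CPM against 17.02 and 19.3 with TMM factors. The ratio of PRKG1 to PLIN1 CPM, which is not corrected for transcript length, was 2.94, 3.58 and 3.11 in the low and 2.39, 3.18 and 3.13 in the high libraries. It stayed between 2.39 and 3.58 while PRKG1 itself went from 17.02 to 190.2 CPM. This restates the small distance by which PLIN1 was chosen and is no separate support. PLIN1 was among the 10 nearest records in all 10 alternative rankings, of which the ones by correlation and by profiles scaled to unit SD are the same ordering.

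**Figure D4:**
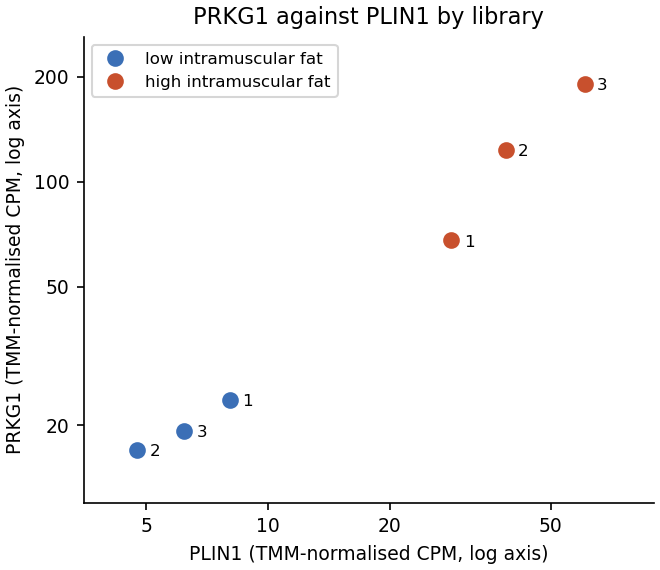
PRKG1 (vertical log axis) against PLIN1 (horizontal log axis), both in TMM-normalised CPM, with 1 numbered point per library. The low libraries lie at 4.75 to 8.04 CPM of PLIN1 and the high libraries at 28.4 to 60.7 CPM. The PRKG1 to PLIN1 ratio lies between 2.39 and 3.58, and PLIN1 was chosen by its likeness to PRKG1 in these libraries.

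The libraries of the other followers are given as a description, since their profiles chose them. CIDEC, a protein that fuses lipid droplets and is listed as CIDE-C, held 14.03, 23.5 and 40.3 CPM in high libraries 1 to 3 and 3.24, 2.70 and 9.08 CPM in the low libraries. RETSAT, the retinol saturase of fat cells, held 29.4, 28.3 and 44.5 CPM against 13.3, 6.77 and 9.01 CPM. TET2, a dioxygenase that oxidises methylated cytosine, held 46.3, 46.3 and 83.7 CPM against 20.8, 22.8 and 13.5 CPM.

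The record named ALDOA, an aldolase of glycolysis, held 19.5, 34.9 and 52.2 CPM in the high and 8.19, 11.08 and 10.99 CPM in the low libraries. The Ensembl name table calls the same identifier ALDOC, so which aldolase it counts is uncertain. CA5B, a mitochondrial carbonic anhydrase, held 10.9, 13.0 and 15.7 CPM against 2.96, 3.36 and 2.08 CPM. SORL1 and FASN had high libraries that were level or lowest in library 3. SORL1, a sorting receptor, held 11.98, 11.6 and 10.7 CPM, and the FASN record ENSSSCG00000029944, for fatty acid synthase, held 172, 145 and 143 CPM.

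**Figure D5:**
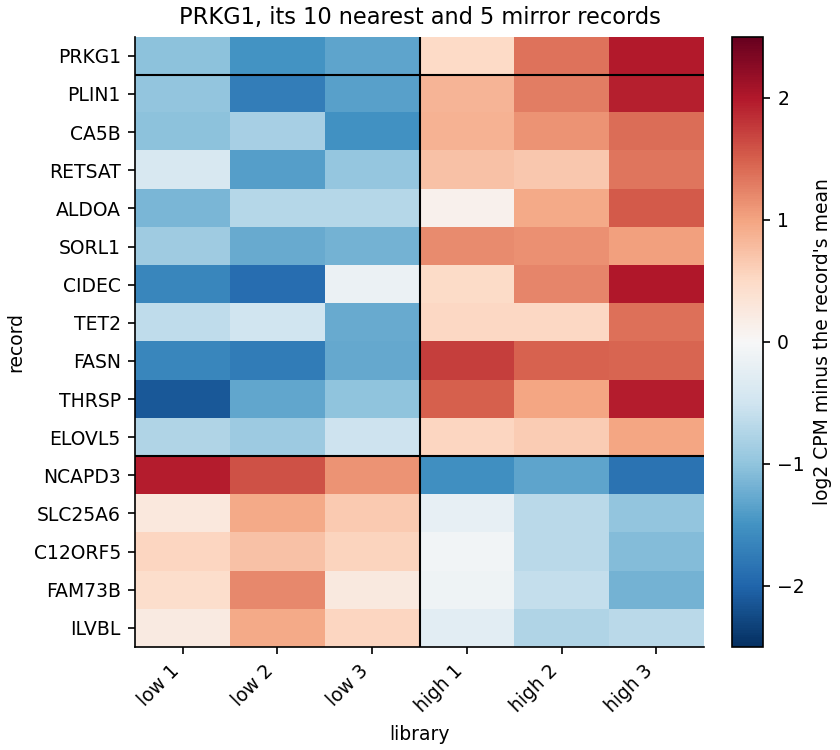
Log2 CPM minus the record's own mean (colour) in the 6 libraries (columns) for PRKG1, its 10 nearest records and the 5 records nearest to its mirror image (rows). The 10 nearest records are above their mean in all 3 high libraries, and the 5 mirror records are below theirs there.

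The list of followers depended on how likeness was defined. Where each profile was scaled to the same spread, so that shape alone counted, PLIN1 was the 1 record of the 10 that stayed, and CCDC69, UST, CANX and PCNP stood with it among the 5 nearest. A ranking by correlation is the same ordering by construction. Without high library 3, 4 of the 10 stayed (PLIN1, SORL1, CA5B and RETSAT). Those that entered were PI15, ACACA, AHCYL2, COL14A1, PDGFRA and RND3, of which COL14A1 and PDGFRA are on the fibroblast and fat progenitor list. Without low library 3, 5 of the 10 stayed. Of the 10 alternative rankings, CA5B and RETSAT were kept in 8, and ALDOA, SORL1 and CIDEC in 7. TET2 and the FASN and THRSP records were kept in 4, and ELOVL5 in 3.

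The nearest records to the mirror image of PRKG1 were more distant. NCAPD3, a condensin II subunit, held 89.1, 69.7 and 50.3 CPM in the low and 7.98, 9.27 and 6.38 CPM in the high libraries, at a distance of 0.575 from the mirrored profile. NCAPD3 lay under 10 CPM in all high libraries, so it was listed only through the low group. It was followed by SLC25A6 (0.69), C12ORF5 (0.69), FAM73B (0.71) and ILVBL (0.78). The record named C12ORF5 is TIGAR in the name table, a regulator of glycolysis, and held 37.2, 43.0 and 37.8 CPM in the low and 24.7, 16.3 and 12.2 CPM in the high libraries. High library 3 was the lowest of all libraries for both of these records. In the name table SLC25A6 is SLC25A5 and FAM73B is MIGA2.

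PRKG1 was also compared with other records after each group's own mean was taken off. PLIN1 had been chosen by its distance over all libraries, which the distance within the groups cannot exceed. Within the groups it lay at 0.158, in place 8 of 2258 records with enough spread there. The nearest of these records was FKBP5, a co-chaperone of the glucocorticoid receptor whose gene glucocorticoids induce. FKBP5 held 95.5, 73.8 and 82.9 CPM in the low and 73.6, 111 and 182 CPM in the high libraries, at a distance of 0.0847 from PRKG1. The groups overlapped, and FKBP5 differed between them by 0.54 (log2, SE 0.31, adjusted p = 0.369), or by 0.14 without high library 3 and 0.81 without high library 1. GAB2, an adaptor of growth factor receptors, came next at 0.0941, with 8.52, 14.1 and 21.6 CPM in the high libraries and -0.04 between the groups on the log2 scale (adjusted p = 0.957). MTIF3, a mitochondrial translation initiation factor named on 2 records that may share reads, lay at 0.13 on both. APOD, a lipocalin that carries lipids, lay at 0.15. None of these 5 passed between the groups (quasi-likelihood and DESeq2), and 0 had an unadjusted p under 0.05.

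Markers of the cell types of muscle were set beside PRKG1. A bulk library does not tell a larger number of cells of a type from more RNA in each cell. Of 15 adipocyte records (13 of 14 genes), 12 lay above 0 and 5 rose in the quasi-likelihood test, namely PLIN1, SCD, both records of FASN and 1 record of THRSP, where 0.144% of all records were called. The list was drawn up with earlier results of these data known, and PLIN1, 1 of the FASN records and the THRSP record were already among the nearest records to PRKG1, so their calls are no separate support. PLIN1, the called THRSP record, CIDEC and CIDEA lay under 10 CPM in all low libraries. Since every listed record exceeds 10 CPM in at least 3 libraries, they were listed only through the high group. That set their direction, so neither their calls nor their places above 0 are support. The 5 calls fell to 1 without low library 2, to 2 without low library 3, high library 2 or high library 3, and to 3 without high library 1. The summed level of the 15 records was 971 to 1044 CPM in the low and 1606 to 2051 CPM in the high libraries, and their median log2 fold change was 1.15. A few records weighed most in the sum. GPD1 held 620, 501 and 542 CPM in the low and 656, 553 and 609 CPM in the high libraries (0.13, SE 0.15, adjusted p = 0.668). SCD, already among the calls, held 20.6, 25.5 and 38.8 CPM in the low and 622, 328 and 479 CPM in the high libraries. LIPE, the hormone-sensitive lipase, held 26.1, 30.8 and 14.8 CPM in the low and 27.1, 41.9 and 90.1 CPM in the high libraries. High library 3 stood out here too, but high library 1 lay inside the low range (1.15 on the log2 scale, SE 0.45, adjusted p = 0.239). The 3 adipocyte records below 0 were AGPAT2, an acyltransferase of triglyceride synthesis, at -1.10 (SE 0.48, adjusted p = 0.278), AQP7, the glycerol channel, at -0.66 (SE 0.24, adjusted p = 0.222) and CFD, the adipsin, at -0.24 (SE 0.22, adjusted p = 0.562). All 3 high libraries of AQP7 lay below its low libraries. Neither AGPAT2 nor CFD separated the groups. The part of fat cell RNA in the level of PRKG1 was not tested.

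Smooth muscle is the tissue best known for PRKG1. The quasi-likelihood test called 0 of its markers and 0.144% of all records, so nothing is read from that count. Of 10 smooth muscle records 8 lay above 0, with a median of 0.22. There were 3 at an unadjusted p under 0.05, and DESeq2 called the same 3, CALD1, MYH11 and ITGA8, where over all records these shares were 18.5% and 6.77%. MYH11, the smooth muscle myosin, held 13.4, 8.38 and 8.87 CPM in the low and 17.9, 18.4 and 24.2 CPM in the high libraries. It had the same order of libraries as PRKG1 and no overlap of the groups, with 0.98 between the groups on the log2 scale (SE 0.22, adjusted p = 0.116). CALD1, the actin-binding caldesmon, had 0.80 (SE 0.15, adjusted p = 0.1002) and the integrin ITGA8 0.89 (SE 0.28, adjusted p = 0.177). ITGA8 lay under 10 CPM in all low libraries, so it was listed only through the high group and its direction is no support. TAGLN, CNN1 and SRF, which also mark smooth muscle or drive its genes, lay at -0.03, -0.31 and 0.02. ACTA2, the smooth muscle actin, had 0.45 (SE 0.21, adjusted p = 0.298), and MYL9 and SMTN lay at 0.22 and 0.05. The high group lay wholly above the low in 4 of the 10 records (ACTA2, CALD1, MYH11 and ITGA8) and wholly below in 0. Over all records these shares were 13.5% and 13.3%. The summed level was 996 to 1390 CPM in the low and 1395 to 1574 CPM in the high libraries. SYNPO2 gave the largest part of it, at 728, 400 and 855 CPM in the low and 744, 756 and 810 CPM in the high libraries. Its difference was 0.22 (log2, SE 0.27, adjusted p = 0.674), so the sum mostly describes this 1 gene. The part of smooth muscle RNA in the level of PRKG1 was not tested.

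Pericyte markers, from the cells that wrap capillaries, had a median of 0.25 over 6 records with 0 called, 2 at an unadjusted p under 0.05 and 1 (ABCC9) in DESeq2. ABCC9, a potassium channel subunit, had 0.83 (SE 0.24, adjusted p = 0.160) and the G protein regulator RGS5 0.74 (SE 0.26, adjusted p = 0.212). The rest of the list did not separate the groups. PDGFRB, KCNJ8 and MCAM lay at -0.0006, -0.01 and 0.02, and NOTCH3 at 0.47 (SE 0.36, adjusted p = 0.506). The summed level of the 6 records was 181 to 289 CPM in the low and 306 to 343 CPM in the high libraries. All 15 fibroblast and fat progenitor records lay above 0 with a median of 0.54, and 0 passed, with 7 at an unadjusted p under 0.05 and 5 in DESeq2. Over all records the quasi-likelihood test called 0.144%, 10.2% lay higher at that unadjusted p and DESeq2 called 4.92% higher. The fibroblast records summed to 1486 to 3016 CPM in the low and 3364 to 4360 CPM in the high libraries. The part of these cells in the level of PRKG1 was not tested.

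No marker of the remaining cell types passed the quasi-likelihood test, which called 0.144% of all records. The 9 endothelial records had a median of 0.06 and the 6 macrophage records -0.10, with 0 called by either tool. At an unadjusted p under 0.05 there were 2 endothelial and 0 macrophage records, where 18.5% of all records were under that value. The 9 records of skeletal muscle fibre genes had a median of -0.16 and summed to 97989 to 114818 CPM in the low and 103731 to 112969 CPM in the high libraries, with 0 called by either tool and 0 at an unadjusted p under 0.05. Nerve and blood markers had 2 records each, with medians of -0.11 and -0.18, and 0 of them were called by either tool or had an unadjusted p under 0.05. The 5 satellite cell records had a median of 0.15 and 0 passed. There were 3 at an unadjusted p under 0.05 and 2 in DESeq2, which called 6.77% of all records. The 2 were MYOG, the myogenin of differentiating myoblasts, at -1.26 (SE 0.28, quasi-likelihood adjusted p = 0.112) and the record named MYF5 at 0.87 (SE 0.18, adjusted p = 0.108), which the name table calls MYF6. NCAM1, the other record at that unadjusted p, had 0.30 (SE 0.13, adjusted p = 0.264).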

How the data were processed

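RNA of the longissimus muscle was isolated with TRIzol and made into libraries with the Illumina TruSeq RNA kit, per the labels' protocols. The submitters' processing notes name Trimmomatic 0.22, FastQC 0.10.1, BWA 0.6.2 and TopHat2 2.0.4, with no role or order. The read counter, its strand setting and the genome build were not given in the sources used here. The authors deposited raw read counts per gene record and CPM (reads scaled to a common library total), and every record exceeds 10 CPM in at least 3 libraries. The deposited log2 fold changes run low over high and were turned around; the deposited p-values and false discovery rates are the authors'. Library totals behind the deposited CPM served as library sizes.

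Counts were tested with edgeR 4.0.16 (R 4.3.3): TMM factors, filterByExpr (7661 records kept), quasi-likelihood F-test of high against low without covariates, and Benjamini-Hochberg adjustment over all records at 0.05. The script was tested on simulated data. Standard errors were obtained from each log2 fold change and its F statistic. Levels are TMM-normalised CPM, and profiles used log2 CPM with a prior count of 2. Replicates are 3 pigs per group, and the p-value of PRKG1 is not reported, its standard error serving as a description. The members and lists were chosen with earlier results of these data known. Named were PRKG1, the matched cyclic GMP list members, the 10 nearest, 5 mirror and 5 within-group records with a symbol, records within 2 Mb and up to 4 members per marker list by unadjusted p. Further genes outside this rule were named after their values were seen, where a count, a sum or a contrast turned on them: ACTA1, ACTA2, TAGLN, CNN1, SRF, MYL9, SMTN, SYNPO2, PDGFRB, KCNJ8, MCAM, NOTCH3, LIPE, GPD1, CIDEA, AGPAT2, AQP7, CFD, AOC3, ELN, CANX and the followers under other definitions. Names came from the deposited table for 6417 records, an Ensembl table for 401 and RefSeq for 131. Same-numbered libraries of the 2 groups did not deviate together (correlations 0.12, 0.03 and -0.08), so no pairing was used. Alternatives were DESeq2 1.42.0, limma-voom (limma 3.58.1), other factors and filters, a replicate block, removal of the span trend or of mitochondrial records, and each library left out.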

Additional observations from a re-analysis of the deposited data

How the results depend on the processing

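The log2 fold change of PRKG1 stayed between 2.26 and 2.98 over the 15 alternatives run. The 11 called records of the whole table became 518 in DESeq2 and ranged from 1 (without low library 2) to 30 (without low library 1) when each library was left out. The 5 called marker records became 19 in DESeq2, 3 in limma-voom and 1 to 5 with a library left out. Of the 10 records most like PRKG1, 1 stayed in a ranking by correlation, which is the same ordering as that of profiles scaled to unit SD, and 4 to 8 with a library left out. Of the same-numbered libraries 1 pair of 3 had correlated deviations above 0.1 (0.12), and the highest value of all was low library 3 with high library 2 (0.14), so the numbers were not treated as pairs. A fit with a replicate block called 2 records of all, 1 marker record and 0 of the cyclic GMP lists, and gave PRKG1 2.57. Of the named genes, these turned sign under an alternative, all from values that passed in neither setting. HDAC4 went to -0.0207 with upper-quartile factors. With the span trend removed HDAC4 went to -0.17, GKAP1 to -0.096, MINPP1 to -0.043, CSTF2T to 0.046, RHOA to 0.0032 and PPP1R12C to 0.00015. PDE11A went to 0.0008815 without mitochondrial records and to 0.0011 with the replicate block. With each library left out, the log2 fold changes ran from -2.39 to 0.49 in PDE1B, -0.15 to 0.71 in NOS1, -0.29 to 0.064 in NOS3, -0.11 to 0.038 in NPR2, -0.13 to 0.067 in PDE11A, -0.012 to 0.23 in PRKAR1A, -0.14 to 0.13 in PPP1R12C, -0.14 to 0.32 in CSRP2, -0.043 to 0.14 in GKAP1, -0.27 to 0.27 in HDAC4, -0.42 to 0.25 in GAB2, -0.28 to 0.051 in CSTF2T and -0.036 to 0.13 in MINPP1. The causes were not tested. With 3 pigs a group, small changes are not detectable, and records at a few CPM carry more counting error than PRKG1.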

Other observations

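The order of the 6 libraries by PRKG1, from high library 3 through high 2, high 1, low 1 and low 3 to low library 2, recurred in 43 other records, of which 36 have a symbol and 6 are on the authors' deposited list of changed genes. Examples, picked after the order was seen and standing for no common theme, were MYH11, the smooth muscle myosin, ELN, the elastin of elastic fibres, AOC3, an amine oxidase, and CANX, a chaperone of the endoplasmic reticulum. The reverse order was found in 38 records. The places of low libraries 2 and 3 hold for TMM-normalised CPM, and for PRKG1 they are exchanged in the deposited CPM (18.3 and 18.1).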
